A study of Mus musculus with 38 samples.

Results

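The 10 cytokine genes described here were chosen by name, out of the 55487 genes counted in each of the 3 deposited tables. They are the interleukin-1 family genes Il1a, Il1b, Il1rn and Il18, the tumour necrosis factor gene Tnf, the interleukin-6 family genes Il6, Osm and Lif, and the genes of the suppressive cytokines interleukin-10 (Il10) and transforming growth factor beta 1 (Tgfb1). All 10 were found by symbol and Ensembl identifier in a table of mouse gene names. They were chosen with earlier results of these data known.

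Interleukin-1 alpha and beta signal through the same receptor, and the Il1rn product occupies that receptor without signalling. Interleukin-1 beta and interleukin-18 are made as precursors that caspase-1 cleaves, so transcript level and secreted cytokine need not move together. Tumour necrosis factor is an early product of activated macrophages and microglia. Interleukin-6, oncostatin M (Osm) and leukaemia inhibitory factor (Lif) signal through receptor complexes that share the gp130 chain, encoded by Il6st, and activate STAT3. Interleukin-10 and transforming growth factor beta 1 restrain myeloid activation, and the latter is stored as a latent complex until it is released.

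The series holds libraries of the mouse microglial line BV2 (immortalised), of GL261, a mouse glioma line with a stably integrated pEGFP-N1 plasmid, and of macrophages grown from WT bone marrow (BMDM), which are primary cells. All were exposed for 16 h to either 21% oxygen, called normoxia, or less than 0.1% oxygen, called hypoxia. The first experiment set monocultures beside direct co-cultures, in which GL261 outnumbered BV2 by 2 to 1 or matched BMDM at 1 to 1. The GL261 co-culture libraries are those grown with BV2. The second experiment, on BV2 and BMDM only, used the solvent dimethyl sulfoxide (DMSO) in normoxia and in hypoxia, and 10 nM of panobinostat, which inhibits histone deacetylases, in hypoxia. There are 18 groups and 38 libraries, with 3 libraries for BMDM co-culture at each oxygen level and 2 for every other group. BV2 cells were kept in 2% serum and BMDM in 10% serum, so the medium differs between these cell types in every group. How the cell types were separated after co-culture is not given in the sources used here, and neither is whether BMDM libraries came from separate mice, so p-values measure the spread between these libraries.

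Library totals ran from 9634700 to 27238933 counts. Summed over 14 myeloid markers, CPM (counts scaled to a common library size) were 4226 to 6140 in BV2, 10755 to 21614 in BMDM and 5.14 to 51.8 in GL261 libraries of the first experiment. Fewer cells of a type and less RNA per cell cannot be told apart in such libraries. In the BMDM of the second experiment this sum ran from 1257 to 31283 CPM, and 10 stromal genes chosen after the data were seen (Col1a1, Dcn, Postn and others) summed to 6687 to 34504 CPM, against 207 to 1411 CPM in the BMDM of the first experiment and 4769 to 6250 CPM in GL261. The part of these transcripts in the BMDM results of the second experiment was not tested. Partner-specific transcripts in co-cultures reached, relative to the partner grown alone, 0.568% to 2.36% in BV2, 0.218% to 0.915% in GL261 and 1.29% to 6.28% in BMDM. Some BMDM libraries stood apart in the genes described here: library 2 of both co-culture groups, and library 1 of all 3 BMDM groups of the second experiment. Results of the first experiment that rest on them are given with and without them. For BMDM of the second experiment the values of each library are shown, and no fit without library 1 is given. The cause of these differences was not tested. The 9 neutrophil markers summed to 0.0691 to 18.7 CPM in BMDM of the first experiment and 0.396 to 14.2 CPM in the second. S100a8 reached 18.4 CPM in library 2 of the normoxic co-culture and 11.1 CPM in library 1 of the normoxic DMSO group, while S100a9 had at most 0.126 CPM and Ly6g 0 counts in every BMDM library.

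On the GRCm38 assembly (GENCODE M21) Il1a spans chr2:129299610-129309972 and Il1b chr2:129364570-129371139, both on the minus strand and 54597 bases apart. Il1rn lies at chr2:24336853-24351494, Il6 at chr5:30013114-30019981, Tnf at chr17:35199381-35202007 (minus strand), Il10 at chr1:131019845-131024974, Il18 at chr9:50554827-50581840 and Tgfb1 at chr7:25687002-25705077. Osm (chr11:4236420-4241026) and Lif (chr11:4257557-4272514) are on the same strand, 16530 bases apart. Exons of Il1a share 222 bases with Gm14023 and those of Il1b share 25 bases with Il1bos, both on the opposite strand. Whether strand was used in counting is not given in the sources used here, so counts of these 2 members may hold reads of the antisense gene. No stretch of 75 bases of any member's transcripts occurred in the transcripts of another gene.

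Promoter sequences from RefSeq (GRCm38.p6) were found for 8 members, all but Il10 and Osm. Those of Lif, Il1rn, Il6 and Il1b are shown because the results below turn on these members, and their promoters differ in 2 of the 4 short motifs searched. Each line gives the stretch just before the annotated gene, 5′ to 3′ on the gene's strand. Capitals mark a match to the AP-1 motif TGANTCA or to the NF-kappaB consensus.
Lif (chr11:4257318-4257556, plus strand): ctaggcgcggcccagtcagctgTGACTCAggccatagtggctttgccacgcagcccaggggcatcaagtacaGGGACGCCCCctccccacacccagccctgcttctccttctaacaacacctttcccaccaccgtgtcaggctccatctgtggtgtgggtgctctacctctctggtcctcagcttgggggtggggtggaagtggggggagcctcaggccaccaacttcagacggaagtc
Il1rn (chr2:24336610-24336852, plus strand): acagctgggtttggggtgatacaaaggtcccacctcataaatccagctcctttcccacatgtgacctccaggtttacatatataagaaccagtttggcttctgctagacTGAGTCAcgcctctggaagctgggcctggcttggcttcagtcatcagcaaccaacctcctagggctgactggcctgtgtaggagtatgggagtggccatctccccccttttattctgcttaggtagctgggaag
Il6 (chr5:30012864-30013113, plus strand): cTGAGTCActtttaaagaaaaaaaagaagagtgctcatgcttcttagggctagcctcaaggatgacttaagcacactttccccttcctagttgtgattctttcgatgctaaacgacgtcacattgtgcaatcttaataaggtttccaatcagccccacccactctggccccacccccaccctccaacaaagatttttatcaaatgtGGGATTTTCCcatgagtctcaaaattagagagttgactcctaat
Il1b (chr2:129371140-129371389, minus strand): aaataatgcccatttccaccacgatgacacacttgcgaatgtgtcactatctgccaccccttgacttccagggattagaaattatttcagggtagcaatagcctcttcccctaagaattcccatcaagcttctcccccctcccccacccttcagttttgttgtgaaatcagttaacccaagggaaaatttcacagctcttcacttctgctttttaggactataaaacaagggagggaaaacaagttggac

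The motifs were searched on both strands of windows from 250 bases before to 50 after the start of transcription. AP-1 (TGANTCA) was found in the windows of Lif, Il1rn (the outermost of its 3 starts), Il6 and Il1a, and in 7.81% of all 32851 windows of that length. The NF-kappaB consensus was found for Lif, Il6 and Tgfb1, and in 8.46% of all windows. The hypoxia response element core ACGTG, present in 19.6% of all windows, and the cAMP response core TGACGTCA, present in 1.79%, had no match in any window of these 8 members. In the printed stretches of Lif and Il6 both motifs occur and do not overlap, in that of Il1rn AP-1 alone, and in that of Il1b neither. A match is a description of letters, and a window without one says nothing of binding elsewhere.

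Per kilobase of merged exon, in normoxic monoculture, Tgfb1 was the highest of the 10 in every cell type, at a mean of 92.7 CPM per kb in BMDM, 33.5 in BV2 and 7.62 in GL261. In BMDM it was followed by Tnf (51.5), Il10 (6.57), Osm (5.89), Il18 (5.18) and Il1rn (1.74), with Il1b, Lif, Il1a and Il6 below 1 CPM per kb. The neighbours Il10, Osm and Il18 in that order lay close together, with no overlap of their libraries, at 6.35 to 6.78, 5.88 to 5.90 and 4.58 to 5.79 CPM per kb. BV2 cells held Tnf at 8.85, Il18 at 5.02, Osm at 3.32 and Il1rn at 1.53 CPM per kb, and the other 5 below 1. GL261 cells held Il18 at 6.35 CPM per kb, and Osm, Tnf, Il6 and Lif below 1, while Il1a and Il10 had 0 counts in all 8 GL261 libraries. Levels are set side by side across tables that were scaled separately.

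**Figure D1:**
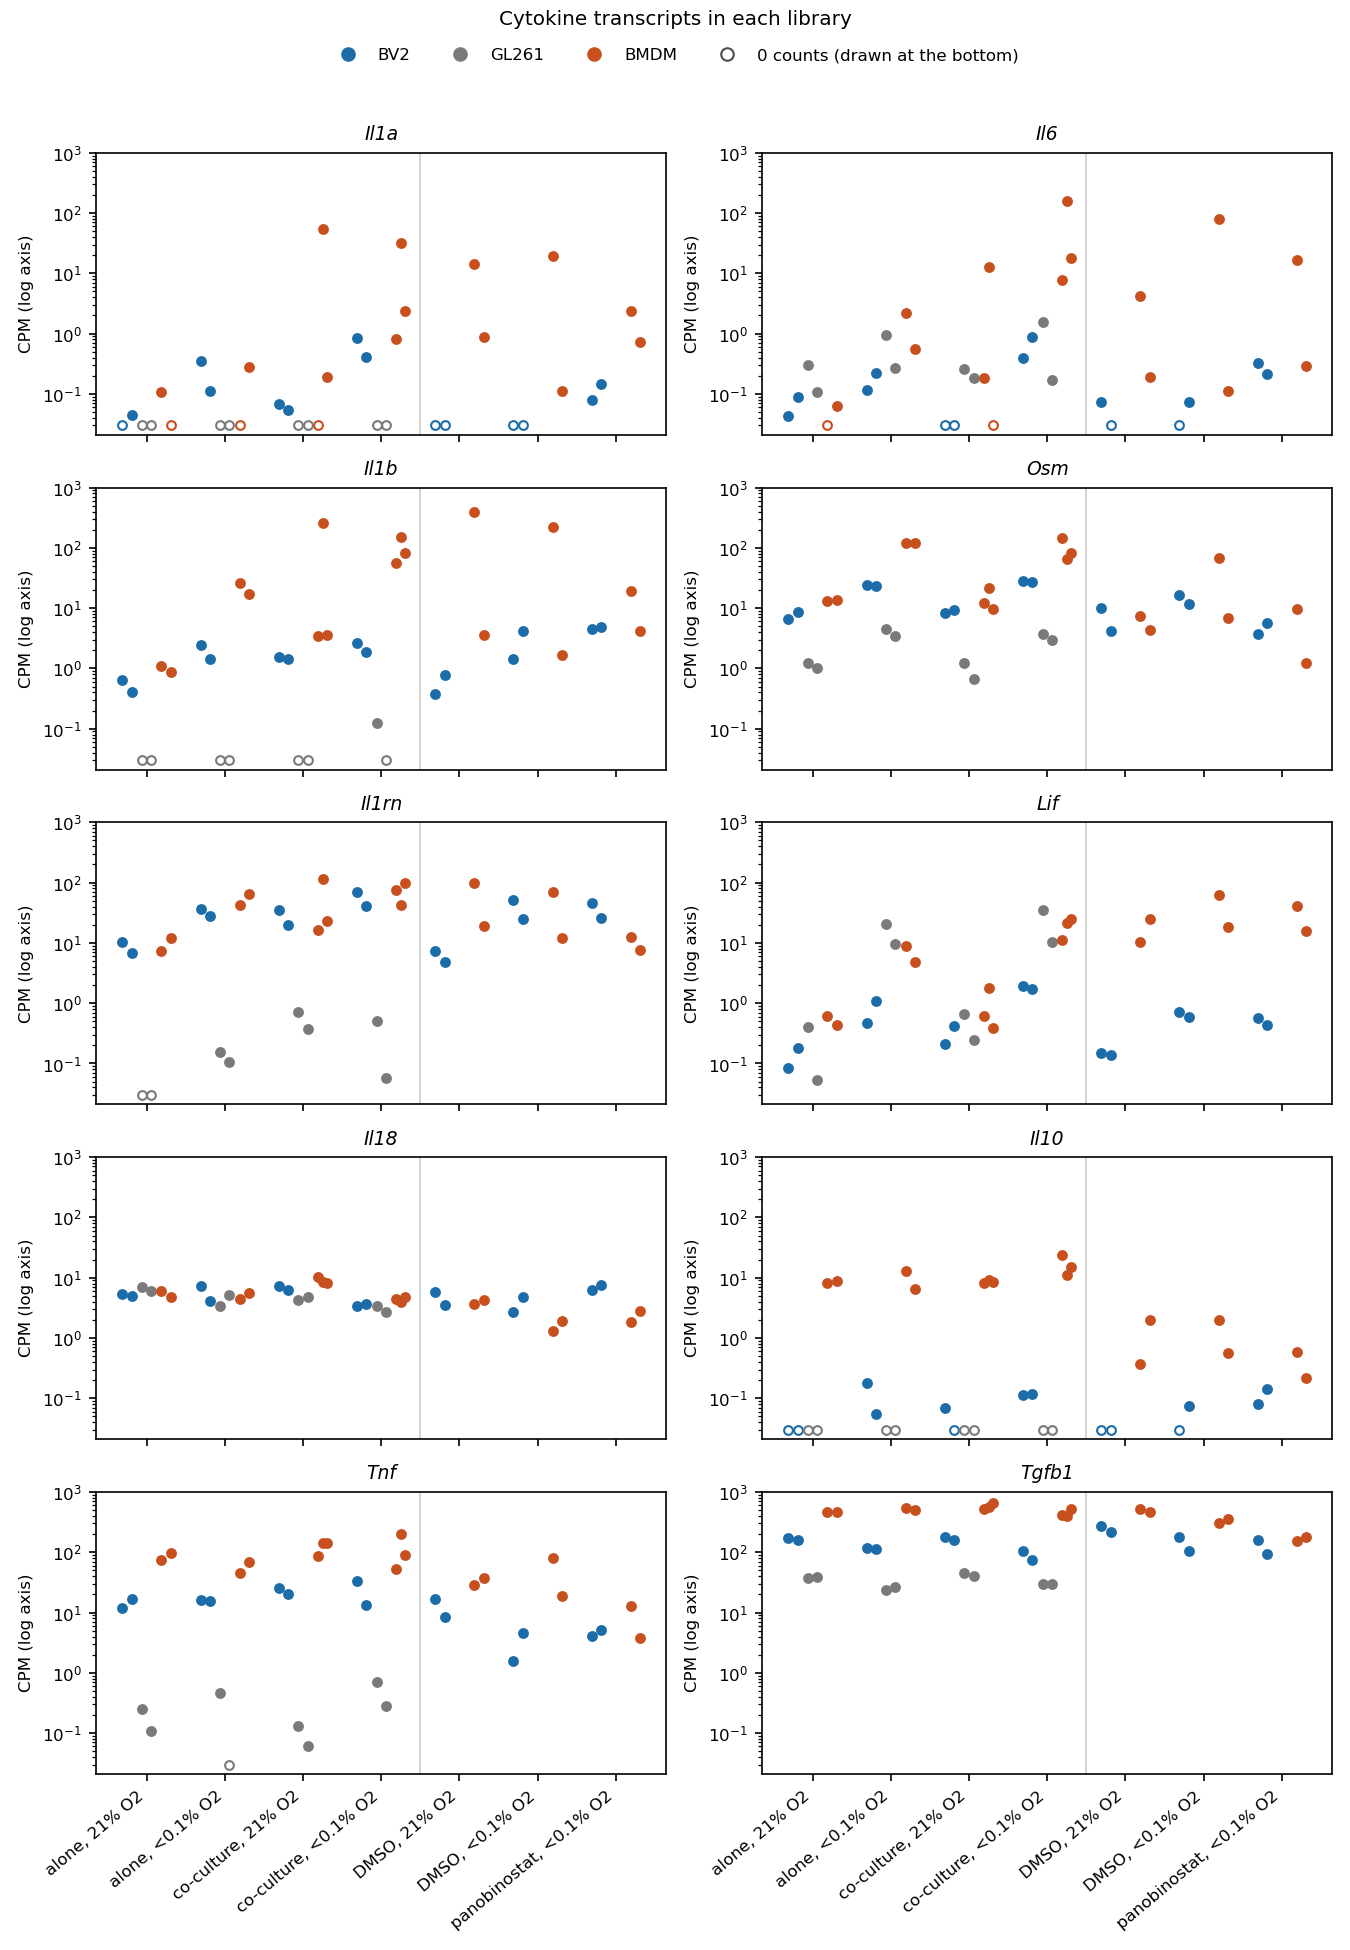
Level of each of the 10 cytokine transcripts in each of the 38 libraries, as CPM on a log axis, by condition on the horizontal axis and by cell type in colour; open symbols are libraries with 0 counts. In the first experiment Osm and Lif are higher in every hypoxic than in every normoxic monoculture library of the same cell type, and BMDM libraries of 1 group differ most in Il1a, Il1b and Il6.

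Hypoxia moved members in both directions in each cell type. In BV2 cells grown alone 7 members were tested, of which 4 rose (Il1b, Il1rn, Osm and Lif) and 1 fell (Tgfb1), beside 30.9% of all genes tested that rose and 31.0% that fell. In BV2 co-cultures 3 rose (Il1rn, Osm and Lif) and 2 fell (Il18 and Tgfb1), beside 35.2% and 32.1% of all genes. With DMSO, 2 of 6 rose in BV2 (Il1b and Il1rn) and 1 fell (Tnf), beside 17.2% and 20.2%. GL261 cells alone and in co-culture each had 5 members tested, with Osm and Lif higher and Tgfb1 lower; of all genes 23.2% rose and 21.4% fell alone, and 26.8% and 25.6% in co-culture. In BMDM alone 3 of 10 rose (Il1rn, Osm and Lif) beside 13.3% of all genes, and none fell beside 10.6%. The BMDM co-cultures had 4 of 10 higher (Il6, Il10, Osm and Lif) beside 17.5%, and 1 lower (Il18) beside 17.3%. With DMSO 0 of 10 members passed in BMDM, beside 0.483% of all genes in either direction; edgeR gave 1 member an unadjusted p below 0.05 and DESeq2 called 0. These shares of members are counts over a short list, and a member that passed the filter on low counts only through its hypoxic libraries had to differ. Among the calls above, Lif in all 3 cell types, Il6 in BMDM and Il1b in BV2 with DMSO passed this filter through hypoxic libraries.

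Medians over the tested members show the same spread. The median log2 fold change in hypoxia was 1.65 over the 7 members in BV2 alone, beside 0.00 over all genes, and 0.62 in BV2 co-cultures beside 0.04. GL261 gave 1.59 alone and 1.80 in co-culture, beside -0.03 and -0.04. The 1.59 is the value of Il6 itself, which was tested in GL261 through its hypoxic libraries. BMDM gave 1.81 alone and 0.29 in co-culture, both beside 0.03 over all genes. With DMSO the medians were 0.31 in BV2 and 0.27 in BMDM, beside -0.03 and -0.01. In the first experiment Lif in BV2, GL261 and BMDM passed the filter on low counts through hypoxic libraries. So did Il6 in GL261 and BMDM there, and Il1b in BV2 with DMSO. Such members had to differ, so the medians that include them are a description and no test against all genes.

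**Figure D2:**
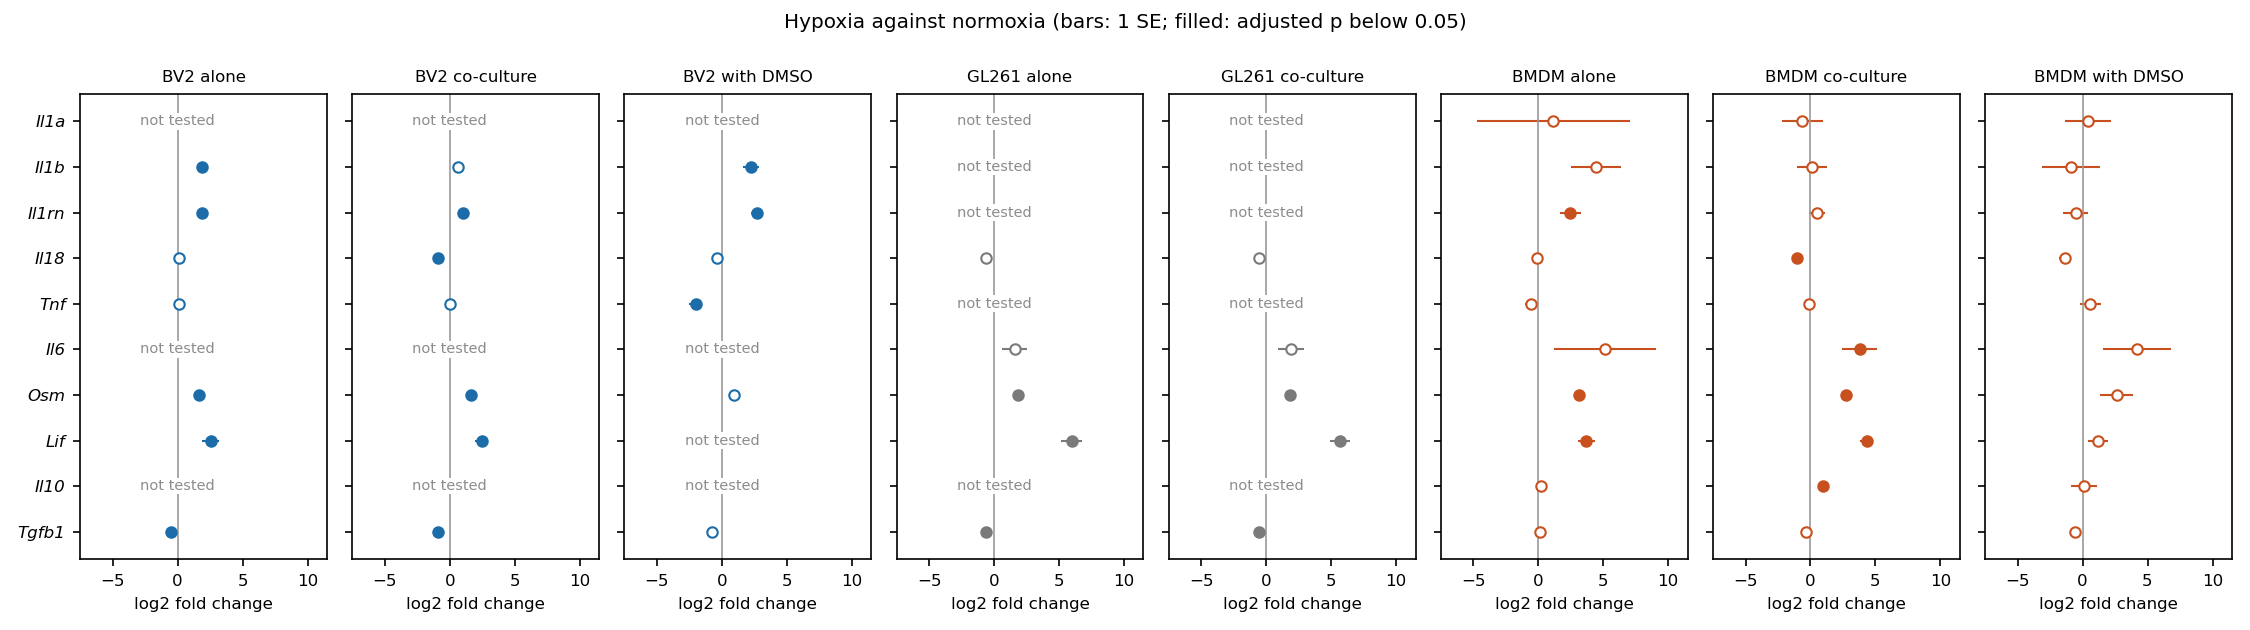
Log2 fold change of hypoxia against normoxia for each member, 1 panel per cell type and culture, with bars of 1 standard error; filled symbols have an edgeR adjusted p below 0.05. Osm and Lif lie to the right of 0 in every panel where they were tested, and Il1a, Il1b and Il6 have the widest bars of each BMDM panel.

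Il1rn, the receptor antagonist of the interleukin-1 family, rose in hypoxia in BV2 cells and in BMDM grown alone. In BV2 alone it stood at 10.3 and 6.68 CPM in normoxia and 36.3 and 27.5 CPM in hypoxia, with no overlap (log2 fold change 1.91, SE 0.28, adjusted p = 1.72e-05). With DMSO it went from 7.23 and 4.87 to 51.5 and 25.1 CPM (2.66, SE 0.41, adjusted p = 0.00113; 2.05 without DMSO hypoxic library 1). In BV2 co-cultures it rose from 34.7 and 19.8 to 69.5 and 41.6 CPM (1.04, SE 0.26, adjusted p = 0.00197), a call lost without hypoxic co-culture library 1 (0.54, adjusted p = 0.0817). BMDM alone held 7.28 and 12.03 CPM in normoxia and 42.3 and 63.6 CPM in hypoxia (2.46, SE 0.80, adjusted p = 0.0452). That call was lost when any of the 4 monoculture libraries was left out, with adjusted p = 0.0895 to 0.241, and without hypoxic co-culture library 3 (adjusted p = 0.0507). In BMDM co-cultures 16.2, 117 and 23.1 CPM stood against 75.5, 43.3 and 99.6 CPM (0.48, SE 0.60, adjusted p = 0.570), and the difference passed without normoxic co-culture library 2 (1.88, adjusted p = 0.00367). In GL261 Il1rn had at most 0.715 CPM and was not tested.

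Il1b encodes the secreted agonist. In BV2 alone it was at 0.638 and 0.401 CPM in normoxia and 2.48 and 1.43 CPM in hypoxia, all above the 3-count floor (log2 fold change 1.88, SE 0.41, adjusted p = 0.000849). The BV2 libraries with DMSO held 0.372 and 0.766 CPM in normoxia and 1.41 and 4.11 CPM in hypoxia (2.26, SE 0.61, adjusted p = 0.0163). The latter was lost without normoxic DMSO library 1 (1.87, adjusted p = 0.0857) or hypoxic DMSO library 2 (1.29, adjusted p = 0.154), and was 2.89 without normoxic DMSO library 2. Of the normoxic DMSO libraries only library 2 reached the level of the filter. Il1b was thus tested there through its hypoxic libraries, those with panobinostat among them, and the DMSO call is a description. In BV2 co-cultures the libraries at 1.52 and 1.44 CPM in normoxia and 2.67 and 1.87 CPM in hypoxia did not pass (0.62, SE 0.36, adjusted p = 0.142).

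In BMDM grown alone Il1b had 1.09 and 0.882 CPM in normoxia and 26.3 and 17.3 CPM in hypoxia. The groups do not overlap, yet the difference did not pass (log2 fold change 4.45, SE 1.91, adjusted p = 0.116). The spread there was estimated over all 10 BMDM libraries, and with only the 2 groups compared the adjusted p was 1.51e-05. DESeq2 called it (4.44, adjusted p = 0.0433). BMDM co-cultures held 3.40, 259 and 3.57 CPM in normoxia and 55.1, 149 and 81.5 CPM in hypoxia, for libraries 1, 2 and 3 (0.10, SE 1.15, adjusted p = 0.955). Normoxic library 2 lay above every hypoxic library and the other two normoxic libraries below them all. Without normoxic co-culture library 2 the difference was 4.78 in co-culture (adjusted p = 0.000124) and 4.43 alone (adjusted p = 0.000514). With both co-culture libraries numbered 2 left out they were 4.28 (adjusted p = 2.27e-05) and 4.43 (adjusted p = 3.37e-05). These libraries were picked on their levels of these genes, so the spread falls by construction.

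With DMSO the BMDM split by library and not by oxygen. Library 1 held 398 CPM of Il1b in normoxia and 219 in hypoxia, and library 2 held 3.53 and 1.66 CPM (log2 fold change -0.86, SE 2.23, adjusted p = 0.832). Il1rn ran likewise, at 98.4 and 69.1 CPM in library 1 and 19.2 and 12.1 CPM in library 2. Summed myeloid markers were 31283 and 5024 CPM in library 1 and 20575 and 13293 CPM in library 2 in normoxia and hypoxia, and the part of these markers in the member values was not tested.

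Il1a, the cell-associated agonist, was near the limit of detection in most libraries. It had at most 0.835 CPM in the BV2 libraries. In BMDM alone it was at 0.109 and 0 CPM in normoxia and 0 and 0.276 CPM in hypoxia, at most 4 counts. BMDM co-cultures held 0, 54.7 and 0.193 CPM in normoxia and 0.803, 32.3 and 2.37 CPM in hypoxia (log2 fold change -0.62, SE 1.55, adjusted p = 0.786). Without normoxic co-culture library 2 the sign turned (7.13, adjusted p = 0.0220), as it did without both libraries numbered 2 (4.19, adjusted p = 0.0451). BMDM of the second experiment held 14.1, 19.6 and 2.37 CPM in library 1 of the normoxic, hypoxic and panobinostat groups, and 0.882, 0.111 and 0.727 CPM in library 2.

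Il18, whose precursor is stored in many cells, was present at a like level in all 3 cell types, between 1.29 and 10.3 CPM in all 38 libraries. In the main fits its fall in hypoxia passed in co-culture of both myeloid cells and in no other hypoxia comparison. BV2 co-cultures went from 7.40 and 6.24 CPM to 3.45 and 3.62 CPM (log2 fold change -0.94, SE 0.26, adjusted p = 0.00423), and BMDM co-cultures from 10.3, 8.46 and 8.29 CPM to 4.52, 4.02 and 4.74 CPM (-1.03, SE 0.21, adjusted p = 0.00352). Neither pair of groups overlapped. GL261 co-cultures held 4.10 to 4.59 CPM per kb in normoxia and 2.64 to 3.30 in hypoxia, also without overlap, and did not pass. BMDM with DMSO held 3.62 to 4.09 CPM per kb in normoxia and 1.25 to 1.83 in hypoxia, again without overlap. Il18 did not pass there, but was the 1 member with an unadjusted p below 0.05 by edgeR. BV2 with DMSO overlapped, at 3.44 to 5.71 and 2.59 to 4.57 CPM per kb. Grown alone, BV2 cells had 5.36 and 4.99 CPM in normoxia and 7.25 and 4.06 CPM in hypoxia (0.12, SE 0.24, adjusted p = 0.683), and BMDM 5.97 and 4.72 CPM and 4.51 and 5.67 CPM (-0.07, SE 0.26, adjusted p = 0.874). In GL261 alone 6.96 and 6.14 CPM stood against 3.36 and 5.09 CPM (-0.64, SE 0.26, adjusted p = 0.0662; -0.95 and adjusted p = 0.0188 without hypoxic library 2).

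Tnf was at 12.03 and 17.0 CPM in normoxic and 15.9 and 15.5 CPM in hypoxic BV2 monocultures (log2 fold change 0.12, SE 0.29, adjusted p = 0.752). BV2 co-cultures held 25.9 and 20.2 CPM in normoxia and 33.4 and 13.4 CPM in hypoxia (0.03, SE 0.28, adjusted p = 0.932). The hypoxic co-culture libraries lie on either side of the normoxic ones: the difference was -0.86 (adjusted p = 0.00306) without library 1 and 0.48 (adjusted p = 0.0474) without library 2. With DMSO Tnf fell in BV2, from 16.9 and 8.35 CPM to 1.57 and 4.63 CPM (-2.02, SE 0.50, adjusted p = 0.0111). It did not pass without normoxic DMSO library 1 (-1.39, adjusted p = 0.0878) and was -3.00 without hypoxic DMSO library 2. BMDM co-cultures held 85.0, 142 and 145 CPM in normoxia and 53.5, 200.2 and 89.9 CPM in hypoxia (-0.11, SE 0.40, adjusted p = 0.856). BMDM alone held Tnf at 73.5 and 95.4 CPM in normoxia and 45.2 and 69.5 CPM in hypoxia (-0.56, SE 0.49, adjusted p = 0.450), and at 28.8 and 37.5 CPM and 81.5 and 18.9 CPM with DMSO (0.60, SE 0.79, adjusted p = 0.652). GL261 libraries had at most 0.694 CPM.

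Lif and Osm of the interleukin-6 family rose in hypoxia in all 3 cell types of the first experiment, alone and in co-culture. In the normoxic libraries Lif had at most 10 counts in GL261 and 8 in BV2, so in both lines it passed the filter on low counts through its hypoxic libraries and had to differ. Its values there are a description, and the calls support nothing further. For Lif, GL261 cells alone went from 0.409 and 0.0534 CPM (8 counts and 1 count) to 20.7 and 9.42 CPM (log2 fold change 5.97, SE 0.82, adjusted p = 0.000178), and in co-culture from 0.650 and 0.246 CPM to 35.3 and 10.3 CPM (5.66, SE 0.76, adjusted p = 9.99e-05). Every hypoxic GL261 library lay above every normoxic one, with library 1 the higher of each hypoxic pair. Leaving out 1 GL261 library moved the first value between 5.22 and 7.98 and the second between 4.52 and 6.50. The low counts in normoxia make the size of the fold imprecise.

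The myeloid cells held less Lif. BV2 cells alone had 0.0850 and 0.178 CPM in normoxia (2 and 4 counts) and 0.472 and 1.10 CPM in hypoxia (log2 fold change 2.54, SE 0.65, adjusted p = 0.00293), and this did not pass without hypoxic library 2 (1.82, adjusted p = 0.0870). BV2 co-cultures went from 0.207 and 0.427 CPM to 1.95 and 1.69 CPM (2.45, SE 0.52, adjusted p = 0.000617; 3.10 without normoxic co-culture library 2). In plain CPM, the partner share alone would put 0.308 and 0.351 CPM of Lif into these hypoxic co-culture libraries, which held 1.89 and 1.64. Here and below such values take the partner at its level when grown alone, 14.9 CPM for Lif in hypoxic GL261. GL261 from hypoxic co-cultures with BV2 held 33.1 and 10.1 plain CPM, at which the same share would give other values. In normoxic BMDM of the first experiment Lif reached the level of the filter only in co-culture library 2. It was thus tested through its hypoxic libraries there as well, and the BMDM calls are a description that supports nothing further. BMDM alone rose from 0.602 and 0.441 to 8.95 and 4.77 CPM (3.68, SE 0.65, adjusted p = 0.0028). BMDM co-cultures rose from 0.618, 1.78 and 0.386 to 11.0, 21.4 and 25.3 CPM (4.32, SE 0.51, adjusted p = 0.00015; 5.19 without normoxic co-culture library 2), where the partner share alone would give 0.256, 0.479 and 0.933 CPM of the 10.7, 19.7 and 25.8 plain CPM measured. In the second experiment Lif stood at 10.2 and 24.9 CPM in normoxic BMDM and 62.4 and 18.2 CPM in hypoxic BMDM (1.20, SE 0.77, adjusted p = 0.358). Those normoxic libraries exceed all 5 normoxic BMDM libraries of the first experiment, as their stromal transcripts do.

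Osm is a product of activated macrophages and neutrophils. BMDM alone held 13.4 CPM in both normoxic libraries and 118 CPM in both hypoxic libraries (log2 fold change 3.14, SE 0.42, adjusted p = 0.000644). BMDM co-cultures went from 12.2, 21.7 and 9.54 CPM to 148, 65.2 and 82.2 CPM (2.75, SE 0.34, adjusted p = 0.000176; 3.38 without both libraries numbered 2). BV2 cells alone went from 6.55 and 8.55 CPM to 24.1 and 23.3 CPM (1.65, SE 0.15, adjusted p = 1.15e-07), and in co-culture from 8.30 and 9.18 CPM to 28.7 and 26.8 CPM (1.66, SE 0.15, adjusted p = 1.07e-07). In GL261 it rose from 1.23 and 1.01 CPM to 4.50 and 3.43 CPM alone (1.82, SE 0.35, adjusted p = 0.00158) and from 1.23 and 0.676 CPM to 3.72 and 2.95 CPM in co-culture (1.80, SE 0.38, adjusted p = 0.00189). None of these 6 pairs of groups overlapped, and all 6 calls held whichever library was left out. With DMSO, BV2 cells held 10.1 and 4.18 CPM in normoxia and 16.3 and 11.6 CPM in hypoxia, which did not pass (0.96, SE 0.42, adjusted p = 0.0967; 1.76 and adjusted p = 0.0163 without normoxic DMSO library 1). BMDM with DMSO held 7.53 and 4.41 CPM and then 67.3 and 6.76 CPM (2.64, SE 1.27, adjusted p = 0.248).

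Il6 itself was scarce outside BMDM. BV2 libraries had at most 0.875 CPM and the member was not tested there. GL261 cells held 0.307 and 0.107 CPM in normoxia and 0.954 and 0.268 CPM in hypoxia (log2 fold change 1.59, SE 0.98, adjusted p = 0.210). In GL261 co-cultures 0.260 and 0.184 CPM stood against 1.58 and 0.170 CPM (1.92, SE 1.01, adjusted p = 0.132; 2.82 without hypoxic co-culture library 2). No normoxic GL261 library reached the level of the filter. Il6 was tested in GL261 through its hypoxic libraries, and its values there are a description. BMDM co-cultures went from 0.185, 12.8 and 0 CPM to 7.63, 160.1 and 18.1 CPM (3.80, SE 1.34, adjusted p = 0.0469). Among normoxic BMDM libraries only co-culture library 2 reached the level of the filter. Il6 was thus tested through its hypoxic libraries, and the call is a description. The groups overlap through normoxic library 2, the call is near the threshold, and it was lost when any 1 of the 4 monoculture libraries (adjusted p = 0.0621 to 0.0640), normoxic co-culture library 1 (3.22, adjusted p = 0.114) or 3 (3.27, adjusted p = 0.109), or hypoxic co-culture library 2 (1.53, adjusted p = 0.380) was left out; it was 9.02 without normoxic co-culture library 2. DESeq2 gave an adjusted p of 0.137, and with only the 2 groups compared the difference was 3.82 (adjusted p = 0.0863). BMDM alone held 0 and 0.0630 CPM in normoxia and 2.18 and 0.553 CPM in hypoxia (5.15, SE 3.93, adjusted p = 0.378), which passed without both co-culture libraries numbered 2 (5.14, adjusted p = 0.0138). BMDM with DMSO held 4.24 and 80.9 CPM in library 1 and 0.189 and 0.111 CPM in library 2, in normoxia and hypoxia (4.21, SE 2.63, adjusted p = 0.347).

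**Figure D3:**
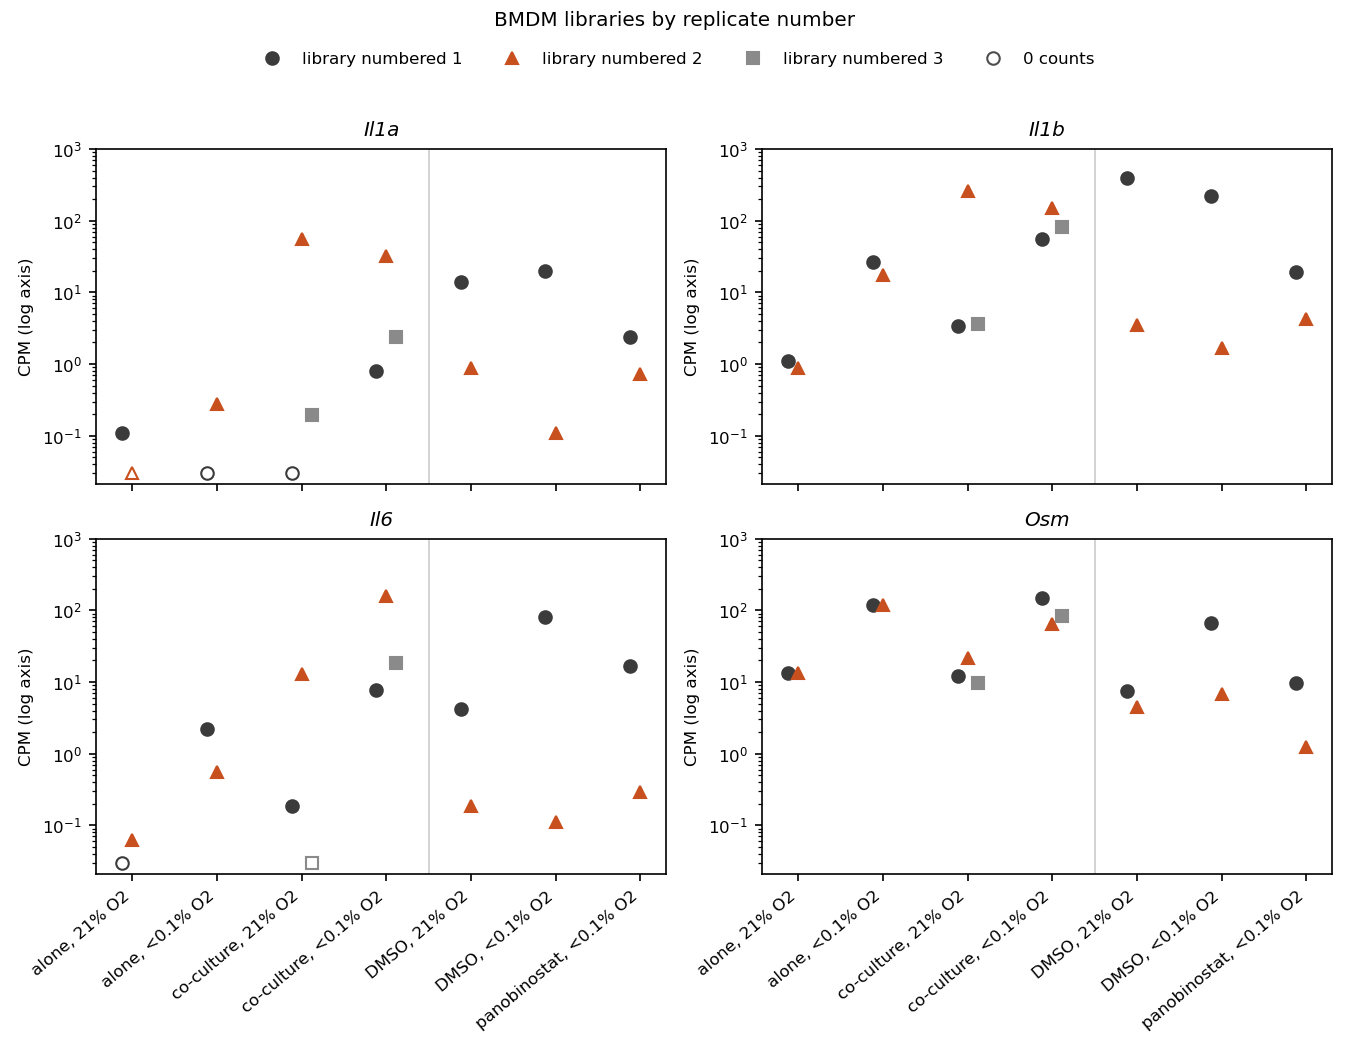
Il1a, Il1b, Il6 and Osm in each BMDM library, as CPM on a log axis by condition, with the replicate number as symbol; open symbols are 0 counts. Library 2 of both co-culture groups and library 1 of the DMSO and panobinostat groups are the highest of their group in Il1a, Il1b and Il6, whereas Osm follows oxygen in the first experiment.

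Of the suppressive cytokines, Tgfb1 fell in hypoxia in both lines. BV2 cells alone went from 175 and 162 CPM to 118 and 113 CPM (log2 fold change -0.55, SE 0.14, adjusted p = 0.00256), and in co-culture from 181 and 163 CPM to 105 and 74.5 CPM (-0.94, SE 0.14, adjusted p = 1.93e-05). GL261 cells alone went from 37.9 and 38.9 CPM to 23.4 and 26.1 CPM (-0.63, SE 0.13, adjusted p = 0.00293), and in co-culture from 45.7 and 39.6 CPM to 29.7 and 29.5 CPM (-0.53, SE 0.14, adjusted p = 0.00674; -0.41 and adjusted p = 0.0988 without normoxic co-culture library 1). The BV2 share in those GL261 co-cultures alone would give 1.56 and 1.07 CPM in normoxia and 0.288 and 0.246 CPM in hypoxia. In BMDM alone Tgfb1 was at 466 and 469 CPM in normoxia and 535 and 498 CPM in hypoxia (0.14, SE 0.17, adjusted p = 0.590). BMDM co-cultures held 515, 569 and 647 CPM in normoxia and 417, 403 and 513 CPM in hypoxia, with no overlap (-0.38, SE 0.14, adjusted p = 0.0583). With the replicate number as a block this passed (-0.38, adjusted p = 0.0259), as it did without hypoxic co-culture library 3 (-0.49, adjusted p = 0.0291). The labels do not say that libraries of like number are paired. BMDM with DMSO held 92.4 to 102 CPM per kb in normoxia and 59.5 to 71.8 in hypoxia, without overlap, and did not pass. BV2 cells with DMSO had 274 and 214 CPM and then 180 and 106 CPM (-0.77, SE 0.32, adjusted p = 0.0830; -1.21 and adjusted p = 0.0267 without hypoxic DMSO library 1).

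Il10 was a BMDM transcript in these data. BV2 libraries had at most 0.177 CPM, or 3 counts. BMDM alone held 8.32 and 8.88 CPM in normoxia and 12.8 and 6.56 CPM in hypoxia (log2 fold change 0.17, SE 0.36, adjusted p = 0.777). In co-culture it rose from 8.09, 9.12 and 8.58 CPM to 23.4, 11.0 and 15.1 CPM, without overlap (0.94, SE 0.30, adjusted p = 0.0299). This did not pass without hypoxic library 1 (0.60, adjusted p = 0.108) or without normoxic library 1, 2 or 3 (adjusted p = 0.0861, 0.0557 and 0.0706). BMDM of the second experiment held 0.218 to 2.02 CPM, below every BMDM library of the first.

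Co-culture with GL261 was asked next. In normoxic BV2 cells 2 of 7 members were higher in co-culture (Il1b and Il1rn), beside 5.77% of all genes, and none lower, beside 9.14%. Il1rn went from 10.3 and 6.68 CPM alone to 34.7 and 19.8 CPM in co-culture (log2 fold change 1.67, SE 0.28, adjusted p = 0.00148), and Il1b from 0.638 and 0.401 to 1.52 and 1.44 CPM (1.49, SE 0.43, adjusted p = 0.0306). GL261 monocultures in normoxia had 0 counts of both. The Il1b call was lost with DESeq2 (adjusted p = 0.0765) and without normoxic monoculture library 2 (1.19, adjusted p = 0.229) or normoxic co-culture library 1 (adjusted p = 0.109) or 2 (adjusted p = 0.0983). Tnf, at 12.03 and 17.0 CPM alone and 25.9 and 20.2 CPM in co-culture (0.66, SE 0.29, adjusted p = 0.132), passed without hypoxic co-culture library 1 (adjusted p = 0.0132) or 2 (adjusted p = 0.0134). In hypoxic BV2 cells 1 of 7 was higher (Il1rn), beside 8.13% of all genes, and none lower, beside 7.57%. Il1rn there stood at 36.3 and 27.5 CPM alone and 69.5 and 41.6 CPM in co-culture (0.80, SE 0.25, adjusted p = 0.0399). That call did not hold with DESeq2 (adjusted p = 0.304), nor without hypoxic monoculture library 1 (adjusted p = 0.0533) or 2 (0.55, adjusted p = 0.263), nor without hypoxic co-culture library 1 (0.32, adjusted p = 0.473). There Il18 passed without hypoxic monoculture library 2 (-1.10, adjusted p = 0.00789), Tgfb1 without hypoxic co-culture library 1 (-0.70, adjusted p = 0.00198) and Tnf without hypoxic co-culture library 2 (1.03, adjusted p = 0.00303). Medians over the 7 members were 0.66 in normoxia and 0.23 in hypoxia, beside -0.02 and 0.00 over all genes.

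GL261 cells had 0 of 5 members past the threshold in co-culture with BV2, in normoxia (0.514% of all genes) and in hypoxia (1.39%). With edgeR 0 members had an unadjusted p below 0.05 in either comparison, and DESeq2 called 0. Il1rn, not tested in GL261, had 0 counts in both normoxic monocultures and 0.714 and 0.370 plain CPM (11 and 6 counts) in normoxic co-cultures. The BV2 share, at the 8.54 plain CPM of BV2 grown alone, would give 0.078 and 0.054 CPM. BV2 from normoxic co-cultures held 37.1 and 20.4 plain CPM of Il1rn, at which the same share would give more. Lif stood at 20.7 and 9.42 CPM alone and 35.3 and 10.3 CPM in hypoxic co-culture (log2 fold change 0.58, SE 0.50, adjusted p = 0.629), an interval of 2 SE from -0.42 to 1.58.

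BMDM in co-culture had 0 of 10 members past the threshold in normoxia, beside 1.64% of all genes, and in hypoxia, beside 7.11%. By edgeR 4 members had an unadjusted p below 0.05 in normoxia and 3 in hypoxia, and DESeq2 called 1 in each, Il1b in normoxia (log2 fold change 6.46, adjusted p = 0.00277) and Lif in hypoxia (1.52, adjusted p = 0.0202). Il1b in normoxia stood at 1.09 and 0.882 CPM alone and 3.40, 259 and 3.57 CPM in co-culture, with no overlap (6.47, SE 1.93, adjusted p = 0.149). In hypoxia it stood at 26.3 and 17.3 CPM and 55.1, 149 and 81.5 CPM, again with no overlap (2.13, SE 1.41, adjusted p = 0.397). Il6 in hypoxia stood at 2.18 and 0.553 CPM alone and 7.63, 160.1 and 18.1 CPM in co-culture, and did not pass (5.51, SE 1.82, adjusted p = 0.0939). Without both co-culture libraries numbered 2, Il1b (1.65, adjusted p = 0.0191) and Il6 (3.24, adjusted p = 0.0347) passed in hypoxia and no member in normoxia. Without normoxic co-culture library 2 alone, Il1b (2.14, adjusted p = 0.0189), Il6 (5.54, adjusted p = 0.0420) and Lif (1.50, adjusted p = 0.0490) passed in hypoxia. Without hypoxic co-culture library 1, Il6 (6.06, adjusted p = 0.0369), Tnf (1.36, adjusted p = 0.0411) and Lif (1.78, adjusted p = 0.0275) passed. GL261 monocultures had at most 0.954 CPM of Il6 and 0 counts of Il1a and Il1b.

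An interaction term compared the hypoxia effect in co-culture with that in monoculture. No member passed in BV2, beside 2.19% of all genes, with 3 of 7 at an unadjusted p below 0.05 by edgeR and 0 called by DESeq2. Those 3 were Il18 (interaction -1.06, SE 0.35, adjusted p = 0.112), Il1b (-1.26, SE 0.56, adjusted p = 0.221) and Il1rn (-0.87, SE 0.37, adjusted p = 0.212). Il18 passed without hypoxic monoculture library 2 (-1.52, adjusted p = 0.0171), and Il1rn (-1.39, adjusted p = 0.0475) and Tgfb1 (-0.76, adjusted p = 0.0275) passed without hypoxic co-culture library 1. In GL261 no member passed, nor any gene (0% of all, with 1354 genes at an unadjusted p below 0.05 and 47 called by DESeq2), and 0 members had an unadjusted p below 0.05. In BMDM again no member passed, nor any gene (0% of all, with 636 genes at an unadjusted p below 0.05 and 8 called by DESeq2), and 2 members had an unadjusted p below 0.05, Il18 (-0.95, SE 0.33) and Tgfb1 (-0.52, SE 0.22), each with an adjusted p of 1. The fall of Il18 in hypoxic co-culture is thus not shown to differ from its value in monoculture in either myeloid cell.

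Between cell lines, 0 of 8 members passed for the hypoxia effect in BV2 minus that in GL261, where 37.4% of all genes did. By edgeR 1 member, Il18, had an unadjusted p below 0.05 (difference 0.87, SE 0.37, adjusted p = 0.0779), and DESeq2 called 0. The median of that difference over all genes was 0.15 with edgeR and 0.22 with DESeq2, so values are read against it. Lif rose by 2.54 in BV2 and 5.97 in GL261 in their own fits, and the difference was -3.33 (SE 1.73, adjusted p = 0.148), passing without hypoxic GL261 co-culture library 1 (-3.42, adjusted p = 0.0465). Il18 passed without hypoxic GL261 monoculture library 2 (1.08, adjusted p = 0.0381) or hypoxic BV2 monoculture library 2 (1.23, adjusted p = 0.0148). For Osm the difference was -0.08 (SE 0.32, adjusted p = 0.955), with an interval of 2 SE from -0.72 to 0.56.

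Panobinostat was given in hypoxia and compared with DMSO in hypoxia, so this comparison shares its controls with that of hypoxia with DMSO. In BV2 cells 1 of 6 members fell (Osm), beside 7.39% of all genes, and none rose, beside 7.21%. Osm went from 16.3 and 11.6 CPM to 3.70 and 5.69 CPM, below both hypoxic controls and within or below the range of the normoxic DMSO libraries of 10.1 and 4.18 CPM (log2 fold change -1.56, SE 0.43, adjusted p = 0.0392). The call was lost without hypoxic DMSO library 1 (-1.31, adjusted p = 0.0908), panobinostat library 1 (-1.29, adjusted p = 0.226) or panobinostat library 2 (-1.91, adjusted p = 0.0825). Il18 was at 2.67 and 4.71 CPM with DMSO and 6.20 and 7.71 CPM with panobinostat, without overlap (0.91, SE 0.40, adjusted p = 0.150). Il1rn, at 51.5 and 25.1 CPM with DMSO and 45.4 and 26.2 CPM with panobinostat, had a difference of -0.10 with an interval of 2 SE from -0.84 to 0.64. Il1b stood at 1.41 and 4.11 CPM and then 4.43 and 4.83 CPM (0.74, SE 0.51, adjusted p = 0.359), Tnf at 1.57 and 4.63 CPM and then 4.11 and 5.05 CPM (0.56, SE 0.51, adjusted p = 0.498), and Tgfb1 at 180 and 106 CPM and then 162 and 93.4 CPM (-0.16, SE 0.32, adjusted p = 0.774). Library 1 was above library 2 in both groups for Tgfb1 and Il1rn.

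In BMDM 0 of 10 members passed with panobinostat, as did 0% of all genes, although 3868 genes had an unadjusted p below 0.05 by edgeR and DESeq2 called 2023. Among the members 2 had an unadjusted p below 0.05 by edgeR, Tnf and Tgfb1, and DESeq2 called these 2 (Tnf -2.59, adjusted p = 0.0146; Tgfb1 -0.97, adjusted p = 0.0102). Tnf stood at 81.5 and 18.9 CPM with DMSO and 12.9 and 3.78 CPM with panobinostat, without overlap (log2 fold change -2.59, SE 0.84, adjusted p = 0.127). Tgfb1 stood at 300.05 and 362 CPM and then 152 and 180 CPM, also without overlap (-0.99, SE 0.26, adjusted p = 0.0933). Osm went from 67.3 and 6.76 CPM to 9.76 and 1.24 CPM, lower in both libraries of like number (-2.75, SE 1.28, adjusted p = 0.237). Il1b went from 219 to 19.3 CPM in library 1 and from 1.66 to 4.21 CPM in library 2 (-3.23, SE 2.43, adjusted p = 0.441), and Il6 from 80.9 to 16.9 CPM and from 0.111 to 0.291 CPM (-2.23, SE 2.37, adjusted p = 0.589). The median over the 10 members was -2.13, beside -0.03 over all genes. Summed myeloid markers were 5024 and 13293 CPM with DMSO and 1257 and 5202 CPM with panobinostat, and Csf1r, the receptor for macrophage colony-stimulating factor, 1270 and 1963 CPM and then 117 and 655 CPM. The part of these markers in the member values was not tested.

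**Figure D4:**
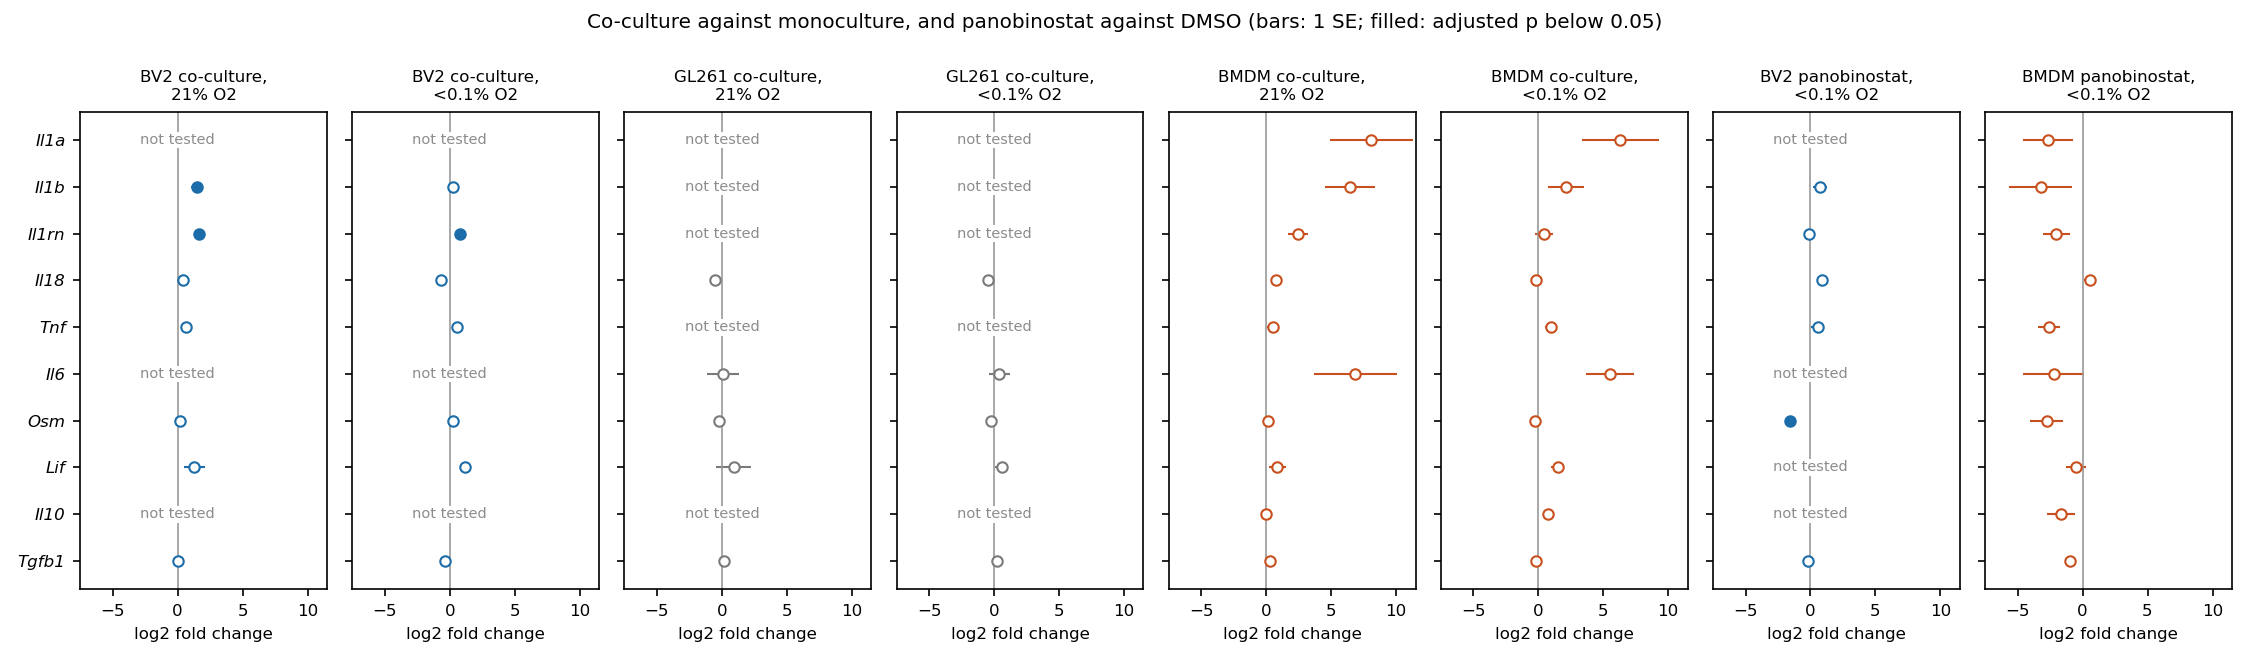
Log2 fold change of each member for co-culture against monoculture at each oxygen level and for panobinostat against DMSO in hypoxia, with bars of 1 standard error; filled symbols have an edgeR adjusted p below 0.05. Filled symbols are Il1b and Il1rn in normoxic and Il1rn in hypoxic BV2 co-culture, and Osm in BV2 with panobinostat, and the BMDM panels have the widest bars.

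No member passed in the comparison of BMDM with BV2, either for hypoxia with DMSO (0.664% of all genes) or for panobinostat (0.0251% of all genes). By edgeR 2 of 10 members had an unadjusted p below 0.05 for hypoxia, Il1rn (difference -3.23, SE 1.22, adjusted p = 0.194) and Tnf (2.58, SE 1.08, adjusted p = 0.236), and DESeq2 called 1, Il1rn (-3.31, adjusted p = 0.0411). For panobinostat 1 of 10 had an unadjusted p below 0.05, Tnf (-3.15, SE 1.11, adjusted p = 0.353), and DESeq2 called 0.

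Receptors and decoys for these cytokines, 18 genes listed with earlier results known, gave 7 rises and 3 falls among 15 tested in hypoxic BV2 monocultures, with a median log2 fold change of 0.19. Over all genes tested 30.9% rose and 31.0% fell there, with a median of 0.00. Il10ra, the ligand-binding chain of the interleukin-10 receptor, rose from a mean of 13.9 to 117 CPM (3.07, SE 0.16, adjusted p = 2.41e-10), and Il1rap, the accessory chain of the interleukin-1 receptor, fell from 11.6 to 7.77 CPM (-0.58, SE 0.18, adjusted p = 0.0101). In BV2 with DMSO 2 of 14 rose and 4 fell, beside 17.2% and 20.2% of all genes, with Il10ra at 2.51 and Il1rap at -2.05. GL261 alone had 5 of 11 higher and 3 lower, beside 23.2% and 21.4% of all genes, among them Il6ra, the interleukin-6 receptor (1.84, SE 0.23, adjusted p = 9.02e-05), and Tgfbr2, a transforming growth factor beta receptor (-1.49, SE 0.18, adjusted p = 8.64e-05). In GL261 co-cultures Osmr, the oncostatin M receptor, rose from 36.0 to 247 CPM (2.78, SE 0.27, adjusted p = 1.21e-05). BMDM alone had 2 of 16 higher and none lower, beside 13.3% and 10.6% of all genes, among the former Il6st (0.91, SE 0.23, adjusted p = 0.0155).

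Maturation and release genes, 20 in all, include those that process the interleukin-1 family and free transforming growth factor beta. In hypoxic BV2 monocultures 8 of 16 tested rose and 2 fell (median 0.48), beside 30.9% and 31.0% of all genes. Casp1, which cleaves the precursors of interleukin-1 beta and interleukin-18, fell from 80.9 to 53.1 CPM (-0.61, SE 0.11, adjusted p = 0.000117) and in co-culture from 95.1 to 38.2 CPM (-1.31, SE 0.11, adjusted p = 3.28e-08). Ltbp3, a binding protein of latent transforming growth factor beta, rose from 1.42 to 6.61 CPM alone (2.22, SE 0.27, adjusted p = 2.16e-06). In BMDM alone 2 of 20 rose and 3 fell (median 0.11), beside 13.3% and 10.6% of all genes. Pycard, the inflammasome adaptor, fell from 81.8 to 31.7 CPM (-1.37, SE 0.19, adjusted p = 0.000916), and Ninj1, which ruptures the membrane of dying cells, rose from 192 to 694 CPM (1.85, SE 0.20, adjusted p = 0.000165). In GL261 alone 4 of 15 rose and 5 fell (median 0.11), beside 23.2% and 21.4% of all genes, among them Gsdmd, the pore-forming gasdermin D, which fell from 56.9 to 23.1 CPM (-1.30, SE 0.17, adjusted p = 0.000139).

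Signalling, feedback and mRNA decay genes, 35 in all and all tested, had 17 rises and 8 falls in hypoxic BV2 monocultures (median 0.33), 20 and 1 in GL261 monocultures (median 0.61), 26 and 0 in GL261 co-cultures (median 1.16), and 5 and 0 in BMDM monocultures (median 0.10). The shares of all genes that rose and fell were 30.9% and 31.0%, 23.2% and 21.4%, 26.8% and 25.6%, and 13.3% and 10.6%, in the same order. Tnfaip3, an inhibitor of NF-kappaB, rose in all of these: from 6.85 to 51.1 CPM in BV2 (2.90, SE 0.20, adjusted p = 5.17e-09), from 8.46 to 141 CPM in GL261 alone (4.06, SE 0.47, adjusted p = 6.13e-05) and from 17.5 to 80.4 CPM in BMDM (2.20, SE 0.43, adjusted p = 0.00477). Socs3, a feedback inhibitor downstream of gp130, was the 1 gene of the list higher in normoxic GL261 co-culture, at 20.1 CPM alone and 41.3 CPM with BV2 (1.04, SE 0.17, adjusted p = 0.0276), beside 0.514% of all genes changed in either direction, and in hypoxia it stood at 25.1 and 65.2 CPM (1.37, SE 0.17, adjusted p = 0.00348). With panobinostat 1 of the 35 rose and 5 fell in BV2, beside 7.21% and 7.39% of all genes, among them Irak1, a kinase downstream of the interleukin-1 receptor, from 220 to 74.3 CPM (-1.57, SE 0.20, adjusted p = 0.00245).

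Other ligands of the same families numbered 31, of which 11 were tested in BV2, 13 in GL261 and 16 in BMDM of the first experiment. Alone in hypoxia 5 rose and 0 fell in BV2 (median 1.12), 6 rose and 1 fell in GL261 (median 0.46), and 4 rose and 1 fell in BMDM (median 0.69). Over all genes the shares that rose and fell were 30.9% and 31.0% in BV2, 23.2% and 21.4% in GL261, and 13.3% and 10.6% in BMDM. Gdf15, a distant member of the transforming growth factor beta family, rose from 6.88 to 42.4 CPM in BV2 (2.62, SE 0.13, adjusted p = 2.51e-10). Csf1, the growth factor of macrophages, rose from 33.5 to 325 CPM in GL261 (3.28, SE 0.52, adjusted p = 0.000472) and from 8.11 to 44.2 CPM in BMDM (2.45, SE 0.74, adjusted p = 0.0346). In hypoxic GL261 the interleukin-6 family member Il11 was higher in co-culture, at 10.8 against 2.65 CPM (1.99, SE 0.39, adjusted p = 0.0373), the 1 of 13 called there, beside 1.39% of all genes.

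Over the means of the 18 groups, on log2(CPM + 0.5), Pearson's r across groups was 0.90 between Il1a and Il1b, 0.84 between Il1a and Il6, 0.93 between Tnf and Tgfb1, 0.83 between Tnf and Il1rn, 0.75 between Il6 and Lif and -0.71 between Il18 and Lif. Among 13395 genes the closest to Lif were Pfkfb3 (0.912) and Adm (0.907), to Il1b Mmp9 (0.961) and Clec4n (0.953), to Il1rn Slc15a3 (0.964) and Samsn1 (0.956), and to Tgfb1 Kcnn4 (0.991) and Nbeal2 (0.984). These values describe 18 groups that share libraries' depth and 3 separately scaled tables, and carry no test.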

How the data were processed

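RNA was measured in 38 mouse libraries from cells fixed in 3% glyoxal, as polyadenylated RNA with a stranded kit, per the labels' protocols. The values are raw counts per gene in 3 deposited tables of 55487 genes, of which 55141 identifiers had a symbol. The submitters' processing notes name Trimmomatic 0.36, STAR 2.6, Picard 2.17.1, SAMtools, HTSeq 0.9.1, deepTools and the build mm10; the annotation release and the strand setting are not given in the sources used here. Library totals of 9634700 to 27238933 counts put the floor of 3 counts at 0.114 to 0.332 CPM, and intervals and floors cover counting error only.

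From these counts edgeR 4.0.16 (R 4.3.3, limma 3.58.1) was fitted once per cell type and table, with TMM scaling, filterByExpr (minimum count 10, minimum total 15), the two-sided quasi-likelihood F test and Benjamini-Hochberg adjustment over all genes tested, called at 0.05. Genes tested numbered 14432 (BV2), 15189 (GL261) and 14806 (BMDM) in the first experiment, then 13294 (BV2) and 14914 (BMDM). SE is the log2 fold change divided by the square root of F, and intervals span 2 SE. CPM are TMM-scaled within each fit except where called plain. The procedure was tested on simulated data. The members and lists were chosen with earlier results of these data known. From each list the text names only the passing gene with the largest rise and that with the largest fall in a comparison, averaging 2 or more in log2 CPM and without overlap of the groups, and for likeness the 2 genes with the highest r; Csf1r and the neutrophil genes were named after their values were seen.

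Alternatives were the DESeq2 1.42.0 test, edgeR with DESeq2 scaling, every gene with 1 count or more, genes with a mean of 5 CPM or more, only the 2 groups compared, genes without a high level in the partner, the replicate number as a block, and each library left out. Leaving out both BMDM co-culture libraries numbered 2 was chosen after seeing the data. The main fits did not take replicate numbers as pairing samples in any comparison, and the block was an alternative in every fit. Between hypoxic and normoxic BMDM co-cultures, deviations of same-numbered libraries correlated at 0.455, 0.244 and 0.407. A pairing there would be inferred from these data, since the labels do not state it. Such correlations were 0.336 to 0.593 in BMDM of the second experiment, which the main fits did not take as paired either.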

Additional observations from a re-analysis of the deposited data

How the results depend on the processing

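Leaving out 1 library left 1481 of 1540 member values on the same side of the threshold and in the same direction, with 31 weaker, 26 stronger and 2 reversed; the other alternatives left 965 of 1044, with 6 weaker, 72 stronger and 1 reversed. The reversed values were Tnf in BV2 co-culture hypoxia without hypoxic co-culture library 1 (-0.86; leaving out 1 library gave -0.86 to 0.48), and Il1a in BMDM co-culture hypoxia without normoxic co-culture library 2 (7.13; leaving out 1 library gave -3.51 to 7.13) and without both libraries numbered 2 (4.19). Smaller moves in the count of members called, within 1.5 times, were DESeq2 calling Il1b for hypoxia in BMDM alone (4 in all), Il6 for hypoxia in BV2 co-culture (6), and Tgfb1 but not Il6 in BMDM co-culture (5), the block adding Il18 and Il6 for hypoxia in GL261 alone and in co-culture (4 each) and Tgfb1 in BMDM co-culture (6), and no filter adding Tnf for normoxic BV2 co-culture (3), Il6 for hypoxia in GL261 co-culture (4), Il1a and Il6 in BV2 co-culture (7) and Il1rn in BMDM co-culture (6). With only the 2 groups compared Tnf was added for normoxic BV2 co-culture, Il6 was lost for hypoxia in BMDM co-culture, and Lif had too few counts to be tested for hypoxia in BV2 alone. A mean CPM of at least 5 removed Lif, Osm or Il1b, 1 member each, in 4 more hypoxia comparisons, and leaving out genes high in the partner removed Lif for hypoxia in BV2 co-culture. Counts that moved by more than 1.5 times follow. DESeq2 called 1 for BV2 co-culture in normoxia and 0 in hypoxia, 1 for BMDM co-culture at each oxygen level, 2 for panobinostat in BMDM and 1 for hypoxia in BMDM minus BV2. A mean CPM of at least 5, which removes low members, left 3 for hypoxia in BV2 alone, 1 and 0 for BV2 co-culture in normoxia and hypoxia, and 0 for panobinostat in BV2. With no filter beyond 1 count the calls were 4 for BV2 co-culture in hypoxia, 2 for the BV2 interaction, 1 for GL261 co-culture in normoxia, 6 for hypoxia in BMDM alone, 4 and 6 for BMDM co-culture in normoxia and hypoxia, 2 for the BMDM interaction, 5 and 3 for hypoxia with DMSO in BV2 and BMDM, 6 for panobinostat in BMDM, and 1, 3 and 5 for the differences BV2 minus GL261, BMDM minus BV2 in hypoxia and BMDM minus BV2 with panobinostat; the cause was not tested. Without genes high in the partner, which removes Osm and Tgfb1, 1 was left for hypoxia in GL261 co-culture. With only the 2 groups compared 5 were called for hypoxia in BMDM alone. Without both BMDM co-culture libraries numbered 2 there were 5 for hypoxia alone, 8 for hypoxia in co-culture and 2 for co-culture in hypoxia. With the replicate block, where by the labels the samples share only a number, the calls were 2 for BV2 co-culture in hypoxia, 1 for the BV2 interaction, 1 for BMDM co-culture at each oxygen level, 5 and 1 for hypoxia with DMSO in BV2 and BMDM, 2 and 1 for panobinostat in BV2 and BMDM, and 1 for hypoxia in BMDM minus BV2. Same-number correlations averaged 0.03 in BV2, 0.18 in GL261 and 0.15 in BMDM of the first experiment, and 0.30 and 0.45 in BV2 and BMDM of the second. Leaving out 1 library gave 1 to 3 calls for BV2 co-culture in normoxia, 0 to 2 in hypoxia, 0 to 2 for the BV2 interaction, 3 to 7 for hypoxia in BMDM co-culture, 0 to 3 for BMDM co-culture in hypoxia, 0 to 1 for panobinostat in BV2 and 0 to 1 for BV2 minus GL261. Over all genes DESeq2 called 676 against 316 for the BV2 interaction, 144 against 78 and 453 against 211 for GL261 co-culture in normoxia and hypoxia, 582 against 243 and 1623 against 1053 for BMDM co-culture, 2062 against 72 for hypoxia with DMSO in BMDM, 1106 against 106 for BMDM minus BV2 in hypoxia and 221 against 4 with panobinostat. The block called 2127 for hypoxia with DMSO and 2044 for panobinostat in BMDM, 4025 against 1941 for panobinostat in BV2, 226 and 654 for GL261 co-culture and 432 for BMDM co-culture in normoxia. Members under 3 counts per library could not be ordered at this depth.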
